A study of Mus musculus with 4 samples.

Results

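The cells described here are barcodes of the pBIC10 mouse spleen that carried transcripts of the chemokine Ccl22 together with a gene of the pBIC10 lymphoma, Gstt1, but few transcripts of the lymphoma's light-chain segment, Igkv3-1. A barcode entered the gated set with at least 200 genes, under 10% mitochondrial UMIs (unique molecular identifiers, each standing for 1 captured RNA molecule), at least 2000 UMIs, at least 3 Ccl22 UMIs, at least 1 Gstt1 UMI, under 10 Igkv3-1 UMIs and no UMI of the T cell gene Cd3e or the dendritic cell gene Zbtb46. This gate held 56 of 14667 kept pBIC10 barcodes (0.382%, exact Clopper-Pearson 95% interval 0.289 to 0.496), of 32538 kept barcodes in the series. They were set against 2121 Ig-high cells of the same library, which had Gstt1, at least 10 Igkv3-1 UMIs and no Cd3e. Ccl22, Gstt1, Igkv3-1, Cd3e, Zbtb46 and the UMI total chose the cells, so their values are given as a description.

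The series measured the spleen of 1 female pBIC and 1 female pBIC10 mouse, both with GFP-marked B cell lymphoma, by 10x 5-prime single-cell RNA sequencing. The labels name the genotypes without listing alleles. Viable cells were sorted to a mix of 20% GFP+ lymphoma and 80% GFP- cells before loading, so a share of cells in the library is not a share in the spleen. With 1 library per genotype no comparison below has a replicate or a test, and intervals cover counting error only. GFP itself was not among the measured genes, so the gated cells cannot be placed on either side of the sort.

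Ccl22 is a chemokine that binds Ccr4 on regulatory and helper T cells and is made by activated B cells and mature dendritic cells. Ccl1 binds Ccr8, Ebi3 is a subunit of the cytokines IL-27 and IL-35, Cd70 is a TNF family ligand of Cd27, and Cdkn2a encodes the cell cycle inhibitors p16Ink4a and p19Arf. A lymphoma of 1 B cell origin carries 1 rearranged light chain, which is why a segment such as Igkv3-1 can mark its cells. Igha encodes the IgA heavy chain constant region, and Jchain joins IgA or IgM into polymers.

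The label of lymphoma-like cells held for most of the gated barcodes and not for 10 of them. In 10 barcodes a gene of macrophages or neutrophils was abundant: Lyz2 made up at least 0.4%, Cst3 at least 0.5% or S100a8 at least 1% of the UMIs. These limits were chosen after the values had been seen. At least 1 UMI of 6 B cell genes (Ms4a1, Cd79a, Cd79b, Pax5, Ebf1 and Cd22) was present in 53 of 56, 44 of the 46 cells and 9 of the 10 barcodes of myeloid profile, so this measure does not separate them. After thinning each cell to 2000 UMIs, Cd79a was present in 80.4% of the 46 (66.1 to 90.6), in 3 of the 10 (interval of the share 6.67% to 65.2%) and in 5.49% of macrophages. Unthinned, it was present in 40 of the 46, 6 of the 10 and 18.3% of macrophages, at median depths of 5448.5, 11560.5 and 12025 UMIs. The summed count of the 6 genes ranged from 0 to 72 per cell. Over the 10 barcodes, Lyz2 ran from 2 to 438 UMIs with a median of 113.5, and in the other 46 from 0 to 7 with a median of 1.5. The 8 macrophage and monocyte markers summed to 12618 UMIs per 1000000 UMIs outside immunoglobulin genes (CPM below) in the 10 barcodes and to 296 CPM in the 46. Lyz2, a gene of the split, made up 1408 of the 1460 UMIs of this sum in the 10 and 75 of 86 in the 46. The split thus shapes both the Lyz2 counts and this sum, which are given as a description. The B cell genes were lower in the 10, with a median of 2.5 UMIs per cell against 7 in the 46, although the 10 were deeper (median 11560.5 against 5448.5 UMIs).

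**Figure D1:**
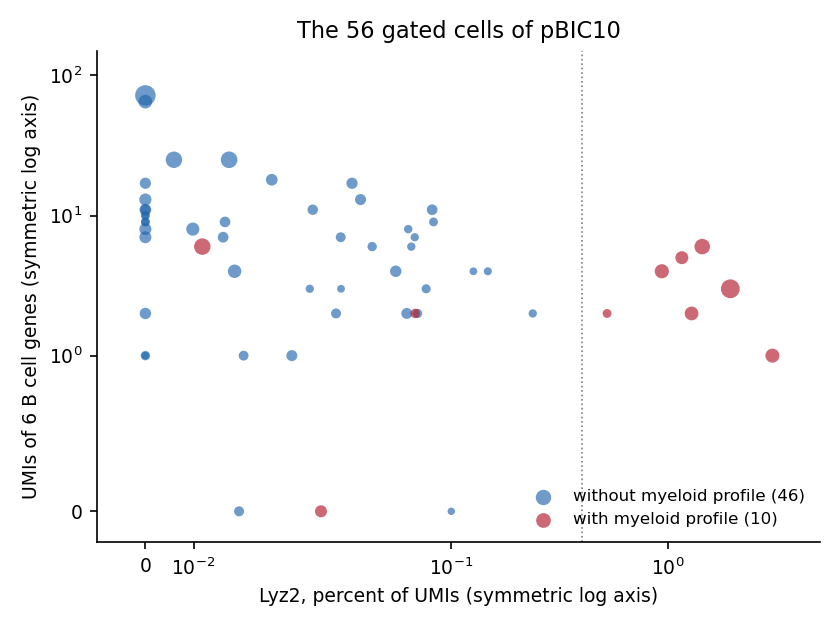
Each point is 1 of the 56 gated cells, with the share of its UMIs from Lyz2 on the x axis and the summed UMIs of 6 B cell genes on the y axis, both symmetric log axes; point size follows the cell's UMIs. The 46 cells without a myeloid profile lie left of the dotted line at 0.4%, and 3 of the 10 with one lie left of it because Cst3 or S100a8 placed them there.

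One of the 10 barcodes differed from the rest. It had 8230 UMIs, 27 Ccl22 UMIs and no UMI of the 6 B cell genes, and it held all 38 UMIs of Ccl17, the sister chemokine of Ccl22 in dendritic cells. It also held 34 of the 49 Fscn1 UMIs, 130 Ccl5 UMIs and 107 Cst3 UMIs, while Zbtb46 was absent by the gate. Another had 94 S100a8 UMIs, the neutrophil alarmin, 2 UMIs of B cell genes and a doublet call. Among the 46, the doublet caller Scrublet marked 1 barcode, with 61 S100a8, 23 Il1b and 16 Ccl3 UMIs beside 65 UMIs of B cell genes. Neutrophil markers, 883 CPM over the 46, had 167 of their 257 UMIs in 1 cell. A productive T cell receptor contig was found for 1 of the 56 barcodes, supported by 3 UMIs. None of the 56 barcode sequences occurred in the pBIC matrix, where 712 of all 14991 pBIC10 barcodes did.

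The gate ran through a continuum of counts. Exactly 3 Ccl22 UMIs were present in 10 of the 56, and the same gate at exactly 2 held 25 further barcodes, of which 10 had a myeloid profile. Igkv3-1 was at 8 or 9 UMIs in 17 gated cells (5 with Ccl1), and 38 cells just outside had 10 to 14 (20 with Ccl1 and 34 with Cd79a). Gstt1 rested on 1 UMI in 24 gated cells, and 26 barcodes met every other condition with none. The 10 shallowest gated cells had a median of 2590.5 UMIs, and 4 barcodes with a median of 1316 failed by depth alone. Cd3e kept out 7 barcodes and Zbtb46 kept out 5.

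The 46 cells without a myeloid profile carried the 4 other marker genes in varied combinations. Of Ccl1, Ebi3, Cd70 and Cdkn2a, 10 cells had all 4, 18 had 3, 9 had 2 and 9 had 1. Ccl1 was detected in 22 of the 46, with 52 UMIs in all and at most 11 in a cell. Ebi3 was detected in 31 (median 1 UMI, highest 16) and Cd70 in 23 (median 0.5, highest 32). Cdkn2a was detected in 45 of 46, with a median of 5 and a highest count of 92. In the 10 barcodes of myeloid profile Ccl1 and Cd70 had 1 UMI each, Ebi3 had 6 and Cdkn2a had 15.

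As levels summed over cells, the markers were higher in the gated cells than in the Ig-high cells, though for Cd70 1 cell weighed heavily. Over all 56, Ccl1 was at 130 CPM (exact Poisson 95% interval 97.6 to 170.5) against 41.9 in Ig-high cells, a log2 ratio of 1.64 (1.21 to 2.03). Ebi3 stood at 266 against 127 CPM, a log2 ratio of 1.06 (0.78 to 1.34). Cd70 was at 214 against 144 CPM, with a log2 ratio of 0.57 (0.25 to 0.87), and Cdkn2a at 858 against 611 CPM, with 0.49 (0.33 to 0.64). Of these 4 genes, Ccl1 and Ebi3 reached a 2-fold difference in the full set, where 12.1% of all 12189 genes compared (at least 20 UMIs over both sets) were at least 2-fold higher and 15.3% lower. These 4 were named with such results known, so nothing is read from their count. Ccl22, which the gate required, was at 1146 against 183 CPM.

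Ig-high cells that also carried Ccl22 had more of these markers than Ig-high cells without it. Among Ig-high cells without a myeloid profile, 462 met the same Ccl22, Zbtb46 and depth conditions as the gated cells, and 1034 had no Ccl22 UMI. Ccl1 was at 117 CPM in the former and 11.04 CPM in the latter, where T cells had 12.2 CPM. Ebi3 was at 288 against 69.7 CPM, Cd70 at 245 against 107.5, and Cdkn2a at 903 against 505 CPM. Cells with Gstt1, under 10 Igkv3-1 UMIs and no Ccl22, 219 of 507 without a myeloid profile, had 9.07 CPM of Ccl1, 52.7 of Ebi3, 15.3 of Cd70 and 371 of Cdkn2a. After thinning, Cdkn2a was present in 42.5% of the 219 and 89.1% of the 46. How many of the 219 are lymphoma cells is not known, so their levels may be those of a mixture. The 46 gated cells had 179 CPM of Ccl1, 351 of Ebi3, 296 of Cd70 and 1148 of Cdkn2a. Against the 462 Ccl22-positive Ig-high cells, their log2 ratios were 0.61 (0.18 to 1.01) for Ccl1 and 0.35 (0.18 to 0.51) for Cdkn2a. For Ebi3 the log2 ratio was 0.28 (-0.02 to 0.57) and for Cd70 0.27 (-0.06 to 0.59), intervals that include no difference.

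**Figure D2:**
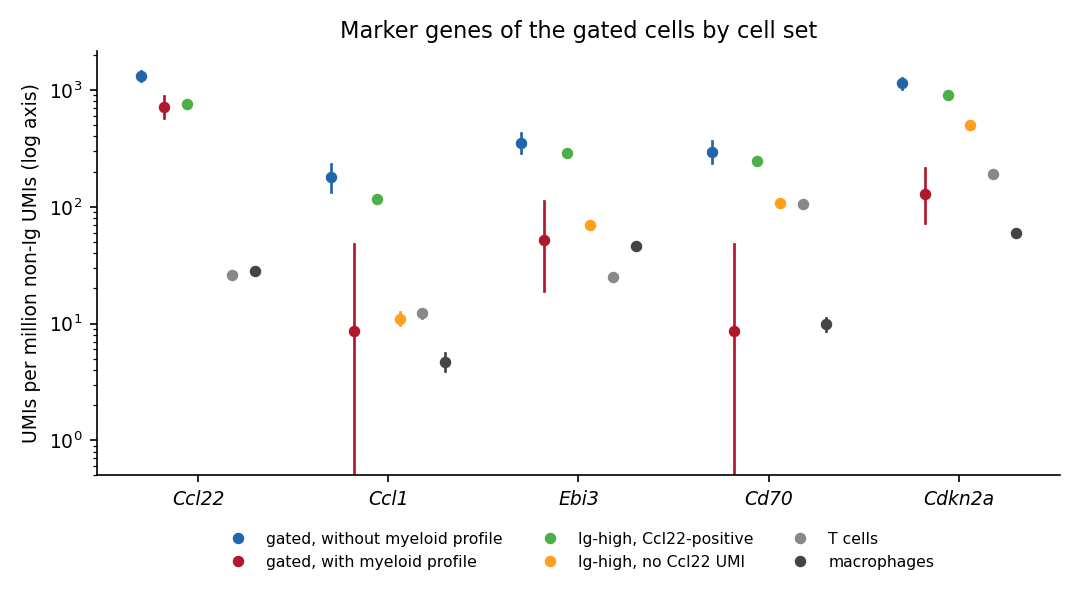
Levels of the 5 marker genes in CPM, log axis, for 6 cell sets; bars are exact Poisson 95% intervals, drawn from 0.5 upward, and Ccl22 has no point in the set defined by its absence. The gated cells without a myeloid profile have 179 CPM of Ccl1, against 117 in Ccl22-positive Ig-high cells and 11.04 in Ig-high cells without Ccl22.

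One deep cell held many of these UMIs. The deepest of the 46, with 27193 UMIs, held 32 of the 86 Cd70 UMIs and 92 of the 334 Cdkn2a UMIs. Without it the log2 ratio to Ccl22-positive Ig-high cells was -0.26 (-0.67 to 0.13) for Cd70 and 0.02 (-0.17 to 0.21) for Cdkn2a, and 0.69 (0.25 to 1.10) for Ccl1. In cells of 2000 to under 4000 UMIs, Ccl1 was at 448 CPM in 16 gated cells and at 212 CPM in 22 Ccl22-positive Ig-high cells. From 4000 to under 8000 UMIs the 2 sets had 206 and 198 CPM of Ccl1, and from 8000 to under 16000 UMIs 35.0 and 202 CPM, so the order differed between depths. Above that the 2 sets had 49.1 and 86.6 CPM. Ebi3 was higher in the gated cells in 3 of the 4 ranges, at 341 against 325, 420 against 327 and 491 against 272 CPM, and lower from 4000 to under 8000 UMIs, at 254 against 349. Thinned to 2000 UMIs each, 12 of 46 gated cells had Ccl1 (26.1%, 14.3 to 41.1), against 18.0% (14.6 to 21.8) of the Ccl22-positive Ig-high cells. The shares before thinning were 47.8% and 43.9%, and in macrophages, with a median of 12025 UMIs before thinning, the thinned share was 0.661%.

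The 250 bases upstream of the start are shown for Ccl22, the gene of the gate, and for Ccl1 and Ebi3. Ccl1 and Ebi3 were the markers highest relative to Ig-high cells. The gate required Ccl22 in every cell, so its presence beside them is no result. The sequences are from RefSeq (GRCm38.p6), written 5-prime to 3-prime along the gene's strand. Capitals mark matches to the 10-base NF-kappaB consensus on either strand. NF-kappaB is the factor family downstream of CD40 and the B cell receptor, and its consensus is nearly palindromic, so both strands can match at overlapping places.
Ccl22, chr8:94745434-94745683, plus strand: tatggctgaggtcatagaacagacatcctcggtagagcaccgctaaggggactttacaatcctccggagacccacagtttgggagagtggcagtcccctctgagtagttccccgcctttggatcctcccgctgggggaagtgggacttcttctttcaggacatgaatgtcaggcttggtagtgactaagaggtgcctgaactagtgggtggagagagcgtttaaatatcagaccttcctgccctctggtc
Ccl1, chr11:82179813-82180062, minus strand: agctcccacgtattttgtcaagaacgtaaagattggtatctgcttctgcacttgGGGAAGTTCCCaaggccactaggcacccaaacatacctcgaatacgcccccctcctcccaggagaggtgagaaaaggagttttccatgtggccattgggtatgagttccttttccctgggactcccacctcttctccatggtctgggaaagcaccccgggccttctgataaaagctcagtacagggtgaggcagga
Ebi3, chr17:55952373-55952622, plus strand: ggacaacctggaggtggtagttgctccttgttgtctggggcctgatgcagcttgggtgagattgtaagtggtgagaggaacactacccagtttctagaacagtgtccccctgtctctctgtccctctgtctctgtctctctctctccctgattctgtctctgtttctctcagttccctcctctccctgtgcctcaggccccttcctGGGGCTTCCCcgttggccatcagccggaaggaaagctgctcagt
The consensus was matched on both strands in Ccl1, 196 to 186 bases before the start, and in Ebi3, 44 to 35 bases before it. The Ccl22 window had no match, nor did the windows of Cdkn2a and Jchain. Of 6 genes looked up by symbol in the RefSeq promoter table, 5 were found (not Cd70). A match was present in 7.25% of 32851 RefSeq promoter windows of this length. A match in letters is a description and says nothing of binding in these cells. The list of 25 NF-kappaB subunits and targets had a median log2 ratio of -0.33 in the 46 cells against Ccl22-positive Ig-high cells, with 2 genes at least 2-fold higher and 3 at least 2-fold lower, beside 4.39% and 15.0% of all 9523 genes compared and a median of -0.29 over them. Its member Ccnd2, cyclin D2, was at 89.4 against 34.9 CPM (log2 ratio 1.36, 0.72 to 1.94), with 26 UMIs over 16 cells, and T cells had 225 CPM of it. Birc3, an inhibitor of apoptosis, was at 20.6 against 71.7 CPM on 6 UMIs (log2 ratio -1.80, -3.25 to -0.67).

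Beyond the segment used in the gate, Igha and Igkc were lower than in Ccl22-positive Ig-high cells by less than 2-fold. Igkv3-1 itself ran from 1 to 9 UMIs per gated cell, 973 CPM over the 46, against 7411 CPM in Ccl22-positive Ig-high cells. T cells and macrophages, which do not make light chains, had 692 and 680 CPM. After thinning to 2000 UMIs, the 46 cells had a mean of 2.76 Igkv3-1 UMIs, T cells 0.97, macrophages 0.84, neutrophils 1.45 and Ccl22-positive Ig-high cells 13.9. The 219 Ig-low cells without Ccl22 had a mean of 1.72. At equal depth the gated mean was thus above these and below Ig-high cells, both of which the gate itself shapes.

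Jchain, which the gate did not use, was lower in the gated cells. It was at 347 CPM in the 46 cells (283 to 422) and at 1161 CPM in Ccl22-positive Ig-high cells (1137 to 1184), a log2 ratio of -1.74 (-2.04 to -1.46). Jchain was detected in 37 of the 46 cells with a median of 1 UMI and a highest count of 16. By depth range, from 2000 UMIs upward, the gated cells had 469, 286, 385 and 344 CPM of Jchain, and the Ccl22-positive Ig-high cells 1330, 1067, 1147 and 1171 CPM. The gated level was lower in each of the 4 ranges. Without the deepest cell the log2 ratio was -1.63 (-1.93 to -1.34). Ig-high cells with and without Ccl22 had 1161 and 1087 CPM of Jchain. Ig-low cells without Ccl22, not all known to be lymphoma, had 177 CPM. After thinning to 2000 UMIs, Jchain was present in 54.3% of the 46 cells (39.0 to 69.1) and 79.2% of Ccl22-positive Ig-high cells (75.2 to 82.8), against 80.4% and 97.6% unthinned and 11.1% of thinned T cells.

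Igha was lower by less. It was at 440 CPM in the 46 cells (367 to 523) against 707 in Ccl22-positive Ig-high cells, a log2 ratio of -0.68 (-0.95 to -0.43). Igkc, the kappa constant region, was at 804 against 1096 CPM, with a log2 ratio of -0.45 (-0.64 to -0.26). Both were above the T cell levels of 80.5 CPM for Igha and 337 CPM for Igkc. The interval of the Igkc ratio includes -0.29, the median over all genes in this comparison. Over the 4 depth ranges Igkc was at 1152, 588, 753 and 1032 CPM in the gated cells, against 1217, 1019, 910 and 1150. Igha was at 640, 349, 368 and 541 CPM, against 722, 580, 564 and 755. For every 100 Igkv3-1 UMIs the 46 cells had 45.2 Igha and 35.7 Jchain UMIs, against 9.53 and 15.7 in Ccl22-positive Ig-high cells. T cells had 11.6 and 12.3, and macrophages 13.1 and 12.02. The cap on Igkv3-1 enters this ratio, so it is a description.

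**Figure D3:**
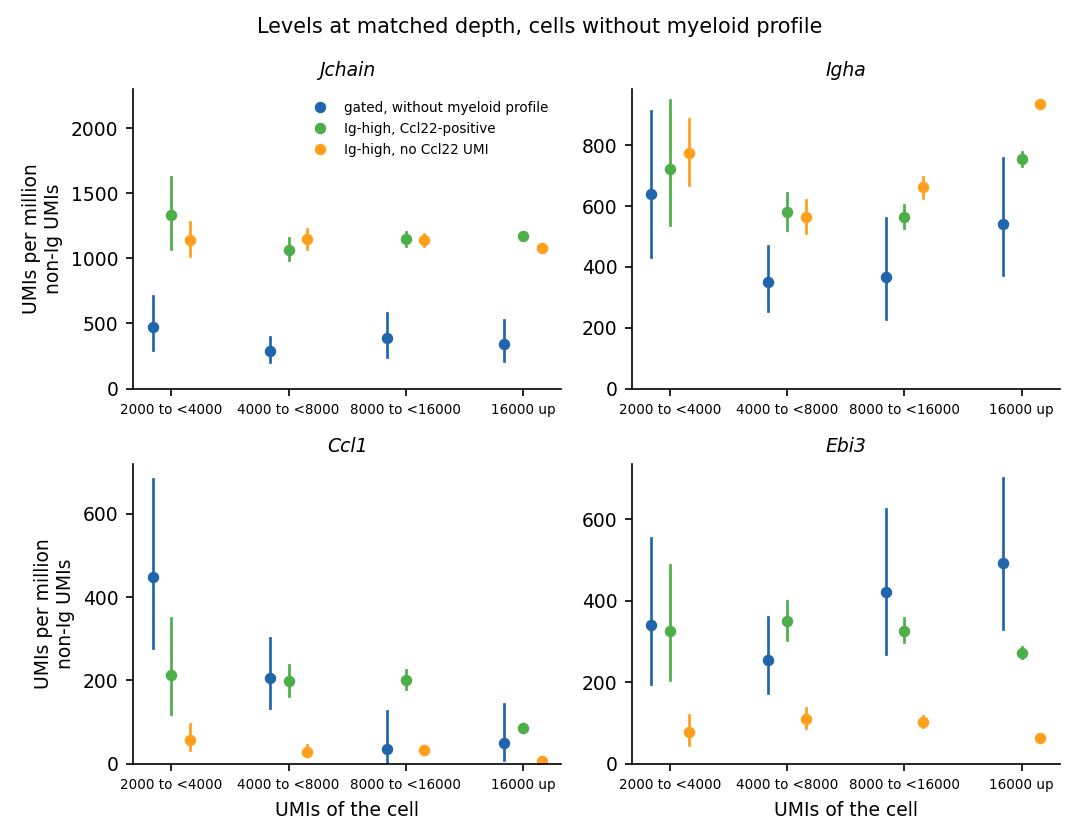
Jchain, Igha, Ccl1 and Ebi3 in CPM, by UMIs of the cell, for gated, Ccl22-positive Ig-high and Ccl22-free Ig-high cells, all without a myeloid profile; bars are exact Poisson 95% intervals. Jchain is lower in the gated cells in each depth range, while the order of Ccl1 and Ebi3 against Ccl22-positive Ig-high cells changes between ranges.

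No gap separated the gated cells from the Ig-high ones in Igkv3-1. Among 508 Ccl22-positive cells without a myeloid profile, gated and Ig-high together, 12 had 0 to 4 Igkv3-1 UMIs, 34 had 5 to 9, 33 had 10 to 14, 23 had 15 to 19 and 23 had 20 to 24. From 4000 to under 8000 UMIs, the 122 such cells had 5, 16, 16, 11 and 6 in the same ranges. The gate had 3 cells with at least 16000 UMIs, with 16 Igkv3-1 UMIs between them, where the 206 Ig-high cells of that depth had a median of 168 each.

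**Figure D4:**
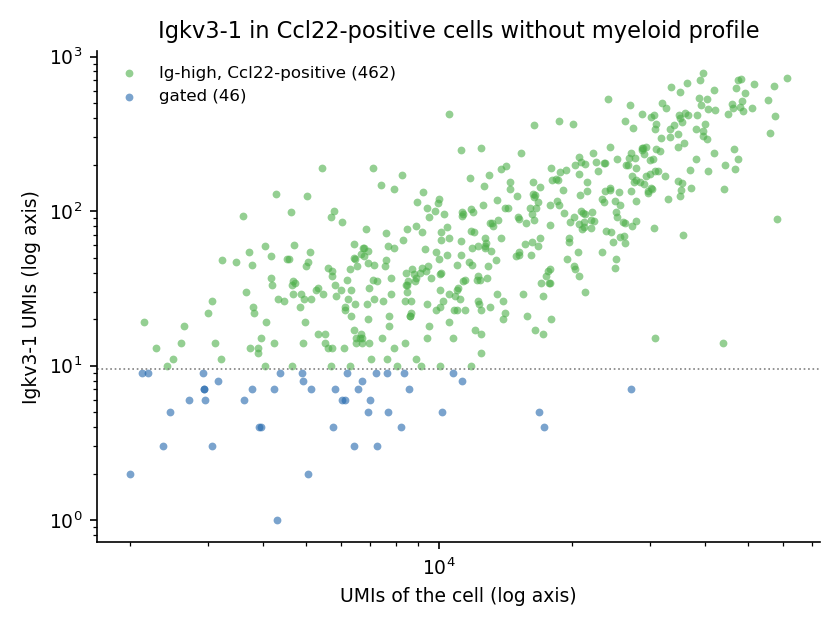
Igkv3-1 UMIs against total UMIs, both on log axes, for 46 gated cells and 462 Ccl22-positive Ig-high cells without a myeloid profile; the dotted line is the gate. The counts run through the gate without a gap in shallow cells, and few deep cells fall near or below it.

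The heavy-chain segments of the gated cells were those of the lymphoma, in other proportions. Of 291 heavy V segment UMIs in the 46 cells, 32.3% were Ighv9-3, 29.2% Ighv9-1 and 25.4% Ighv1-11. In Ccl22-positive Ig-high cells the shares were 32.4%, 38.1% and 10.5%, and T cells held 10.2% Ighv1-11. Among cells with at least 3 heavy V UMIs, Ighv1-11 led in 8 of 29 gated cells (27.6%, 12.7 to 47.2) and in 24 of 446 Ccl22-positive Ig-high cells (5.38%, 3.48 to 7.90). Among Ig-high cells without a myeloid profile, the 137 led by Ighv1-11 had 6232 CPM of Igkv3-1 and 654 CPM of Jchain, against 10464 and 1141 CPM in the 1827 led by another segment. Among gated cells the 8 led by Ighv1-11 had 1125 CPM of Igkv3-1 and 470 CPM of Jchain, against 807 and 349 CPM in the 21 led by another segment. The gate keeps Igkv3-1 under 10 UMIs, so its level there depends on depth (medians of 5194 and 6049 UMIs). The Jchain levels rest on few cells and have no interval, so no order is read from them. Ighv1-11 also led in 14 of 80 Ig-low cells without Ccl22 (17.5%, 9.91 to 27.6). Ighv9-1 led in 19 and Ighv9-3 in 10 of these 80, against 10 and 11 of the 29 gated cells. Segments of 1 family can share reads, so their shares are uncertain. Igha made up 94.1% of 136 heavy constant UMIs in the 46 cells, and Ighm 5.15%, against 99.6% and 0.384% in Ccl22-positive Ig-high cells. Of the 7 Ighm UMIs, 4 lay in 1 cell that also held all 18 UMIs of another light-chain segment, Igkv5-43.

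Of the B cell identity genes, Ly6d and Fcrla were more than 2-fold lower than in Ccl22-positive Ig-high cells, and Ms4a1 and Cd79b were lower by less than 2-fold. Against Ccl22-positive Ig-high cells, Cd79a, a signalling chain of the B cell receptor, was at 887 against 989 CPM in the 46 cells (log2 ratio -0.16, -0.34 to 0.02, and -0.21, -0.40 to -0.02, without the deepest cell), and Pax5, the B lineage factor, at 30.9 against 31.9 CPM on 9 UMIs. Ms4a1, which encodes CD20, was at 217 against 341 CPM (log2 ratio -0.66, -1.04 to -0.30). Cd79b, the partner chain of Cd79a, was at 436 against 571 CPM (log2 ratio -0.39, -0.65 to -0.13). Without the deepest cell these ratios were -0.88 and -0.55. Ly6d, a surface protein of early B lineage cells, was at 467 against 1238 CPM, a log2 ratio of -1.41 (-1.66 to -1.16). Fcrla, an Fc receptor-like protein of B cells, was at 34.4 against 187 CPM (log2 ratio -2.44, -3.51 to -1.56), on 10 UMIs in 8 cells. Of 18 B cell identity genes compared, 5 were at least 2-fold lower and 0 higher in each of 3 comparisons. These set the full gate against all Ig-high cells, the 46 against Ig-high cells without a myeloid profile, and the 46 against the Ccl22-positive ones among them. The last 5 were Ly6d, Fcrla, Cd22, Ebf1 and Fcmr. In the comparison of the 46 with Ig-high cells without a myeloid profile, 16.2% of 11881 genes were lower and 8.48% higher. In the first and the last comparison 15.3% and 15.0% of all genes were lower. The list medians were -0.86, -0.47 and -0.36 in the 3 comparisons, beside -0.23, -0.33 and -0.29 over all genes. The Cd79b interval above includes the last of these. Against Ccl22-positive Ig-high cells 10.1% of the 9523 genes had no UMI in the 46 cells.

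A set of 8 genes that marked the pBIC10 lymphoma in an earlier look at these data (Onecut2, Parm1, Cadm1, Sntg2, Clec2f, Cep290, Bace2 and Sprr1a) were present in the gated cells. Each had between 4 and 26 UMIs over the 56. None was 2-fold higher and 2 were 2-fold lower than in Ig-high cells, Clec2f (59.0 against 133 CPM) and Sntg2 (9.84 against 34.4 CPM). The 8 corresponding genes of the pBIC lymphoma did not reach 20 UMIs in the 2 pBIC10 sets together. Since the list was chosen on these samples, it is no independent support.

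Some secretory genes were lower, and most were less than 2-fold apart. In the 46 cells against Ccl22-positive Ig-high cells, 5 of 15 plasma cell and secretory genes, Jchain among them, were at least 2-fold lower and 0 higher, beside 15.0% of all genes lower, with a list median log2 ratio of -0.83 beside -0.29 over all genes. Creld2 and Pdia4, chaperones of the endoplasmic reticulum, had log2 ratios of -1.73 (-3.06 to -0.68) and -1.42 (-2.30 to -0.67). Hspa5, the main chaperone of that compartment, was at 289 against 423 CPM (log2 ratio -0.55, -0.88 to -0.24). Mzb1, which assists IgM and IgA assembly, was at 2179 against 2305 CPM (log2 ratio -0.08, -0.20 to 0.03).

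Proliferation genes were low in the gated cells. Against all Ig-high cells, 19 of 22 were at least 2-fold lower and 0 higher (median log2 ratio -1.59), with Cdc20, Ccnb1 and Ccnb2, genes of mitosis, at 2, 4 and 3 UMIs in the 56 cells. Their log2 ratios were -3.77 (-6.82 to -1.92), -3.39 (-5.26 to -2.03) and -3.28 (-5.56 to -1.73). In the 46 cells 17 of 22 were lower than in Ig-high cells without a myeloid profile. Against Ccl22-positive Ig-high cells 7 of 22 were lower and 1 higher (Ccne2, on 2 UMIs), and the median was -0.61. Of all genes, 15.3%, 16.2% and 15.0% were lower in these 3 comparisons, with medians of -0.23, -0.33 and -0.29. Ig-high cells with Ccl22 were themselves less often in cycle: after thinning to 2000 UMIs, 11.3% (8.52 to 14.5) of them and 25.4% (22.8 to 28.2) of those without Ccl22 had at least 5 UMIs of the list. Of the 46 gated cells 2 did (4.35%, 0.531 to 14.8), an interval that includes the Ccl22-positive Ig-high share. The summed list was at 981, 254, 368 and 950 CPM over the 4 depth ranges in gated cells and at 1401, 836, 709 and 863 CPM in Ccl22-positive Ig-high cells.

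Growth genes followed the same order. Of 16 genes of growth and MYC targets, 10 were at least 2-fold lower in the 56 than in Ig-high cells, beside 15.3% of all genes. In the 46 against Ccl22-positive Ig-high cells 4 of 16 were lower, beside 15.0% of all genes. The list median there was -0.84, beside -0.29 over all genes. Myc was at 51.6 against 141 CPM in the 46 against Ccl22-positive Ig-high cells, a log2 ratio of -1.45 (-2.29 to -0.72), on 15 UMIs. Ncl, the nucleolar protein nucleolin, was at 368 against 716 CPM (log2 ratio -0.96, -1.25 to -0.69). Srm, which makes spermidine, was at 89.4 against 198 CPM (-1.15, -1.77 to -0.59). Ldha, lactate dehydrogenase, was at 333 against 814 CPM (-1.29, -1.59 to -0.998). The median UMI count was 5448.5 in the 46 cells and 13375.5 in the Ccl22-positive Ig-high cells, and in the 4 depth ranges Ldha was at 597, 286, 245 and 311 CPM against 877, 618, 664 and 871.

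Most MHC class II genes, which present peptides to helper T cells, were less than 2-fold apart. At least 2-fold lower were 1 of 11 in the 56 cells against Ig-high cells (15.3% of all genes), 3 of 11 in the 46 against Ig-high cells without a myeloid profile (16.2%) and 1 of 11 against the Ccl22-positive ones (15.0%). The list median in the last was -0.72, beside -0.29 over all genes. H2-Ab1, a class II beta chain, was at 763 CPM in the 46 cells against 1463 in Ccl22-positive Ig-high cells (log2 ratio -0.94, -1.14 to -0.75). Cd74, the class II invariant chain, was at 6688 against 10838 CPM (-0.70, -0.76 to -0.63). None of 13 MHC class I genes was 2-fold apart in either direction in any of the 3 comparisons. Cxcr3, a receptor for interferon-induced chemokines, was at 117 against 260 CPM (-1.16, -1.69 to -0.67), with its 34 UMIs in 9 of 46 cells. Ltb, lymphotoxin beta, was at 158 against 330 CPM (-1.06, -1.52 to -0.64).

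The genes ranked highest in the full gate had most of their UMIs in the 10 barcodes of myeloid profile. S100a4 was at 605 CPM in the 56 cells against 48.8 in Ig-high cells, the largest by the ranking rule, yet 4 of its 246 UMIs lay in the 46, where its log2 ratio to Ig-high cells was -0.18 (-2.06 to 1.18). Of the other genes ranked highest, Tgfbi had 5 of 136 UMIs in the 46, Tyrobp 17 of 311, Cxcl10 4 of 73 and Zyx 3 of 64. Apoc2, Ecm1, Spint1, Il1rn, F10 and Ctsl had 3 of 22, 4 of 23, 2 of 21, 4 of 22, 9 of 46 and 7 of 31. In the 46, 5 of these 6 still had log2 ratios to Ig-high cells whose intervals lay above 0. Apoc2 was at 3.11 (0.79 to 4.74), Ecm1 at 2.23 (0.33 to 3.62), Il1rn at 2.47 (0.57 to 3.87), F10 at 2.97 (1.81 to 3.93) and Ctsl at 2.68 (1.35 to 3.76), each on 3 to 9 UMIs. In F10, 8 of the 9 UMIs lay in 1 cell, and in Ecm1 and Il1rn 3 of 4. The genes ranked lowest were Fcrla, Ccnb1, Ly6d, Cdc20, Tubb4b, Ccnb2, Creld2, Cenpa, Mad1l1, Camp, Snrpa1 and Phgdh. In the 46 they stayed lower than in Ig-high cells with the exception of Camp, a neutrophil granule gene, whose log2 ratio went from -2.46 to 1.18 once barcodes of myeloid profile were left out of both sets.

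Inflammatory lists also held fewer higher genes once the 10 barcodes were left out. Chemokine ligands were at least 2-fold higher for 9 of 10 genes over the 56 cells and for 5 of 9 in the 46, beside 12.1% and 8.48% of all genes. In the 46, 3 of the 9 had no ratio and could not be called, so the 2 counts are not fully alike. In the 46 against Ccl22-positive Ig-high cells 2 of 7 were higher and 1 had no ratio, beside 4.39% of all genes higher. Those 2 were Ccl5, at 134 against 59.4 CPM over 22 cells (log2 ratio 1.17, 0.66 to 1.65), and Ccl3, with 16 of its 19 UMIs in the doublet call described above. Il1b likewise had 23 of its 24 UMIs in the 46 cells in that barcode. Stress genes had a median log2 ratio of 1.501 over the 56 and -0.07 in the 46, leaving out 2 and 3 of 12 genes that had no ratio. Of 16 interferon response genes 11 were higher over the 56, 8 in the 46, and 3 of 9 against Ccl22-positive Ig-high cells, beside 12.1%, 8.48% and 4.39% of all genes. For the 8 in the 46, 2 of the 16 genes had no ratio. The list median over the 56 was 1.65, and -0.33 with Igkv3-1 under 5 UMIs in the gate. In the 46 against Ccl22-positive Ig-high cells, Isg15 was at 51.6 against 11.6 CPM (2.15, 1.25 to 2.94), on 15 UMIs in 11 cells. Isg15, a ubiquitin-like interferon-induced protein, was at 121.5 CPM in macrophages and 229 CPM in neutrophils. Gbp2, an interferon-induced GTPase, was at 234 against 130 CPM (0.85, 0.47 to 1.201). Neutrophil markers summed to 883 CPM in the 46 cells and 318 in Ccl22-positive Ig-high cells, macrophage markers to 296 and 196 CPM, and T cell markers to 663 and 628 CPM. Their part in these values was not tested. In the 46, Cdkn2b, a cell cycle inhibitor beside Cdkn2a on the chromosome, was at 51.6 against 21.7 CPM (1.25, 0.38 to 2.01), with 8 of its 15 UMIs in 1 cell. Lgals3, galectin 3, was at 99.7 against 48.6 CPM on 29 UMIs (1.04, 0.44 to 1.58). With the first split of myeloid barcodes, by counts, this log2 ratio was -0.46, and with Igkv3-1 under 5 the ratio of all gated to Ig-high cells was -0.83 (2.48 in the 56). In the 46 against Ccl22-positive Ig-high cells, none of 17 B cell receptor signalling genes or 13 survival and death genes was called 2-fold apart. Of the 13, 1 had no ratio.

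**Figure D5:**
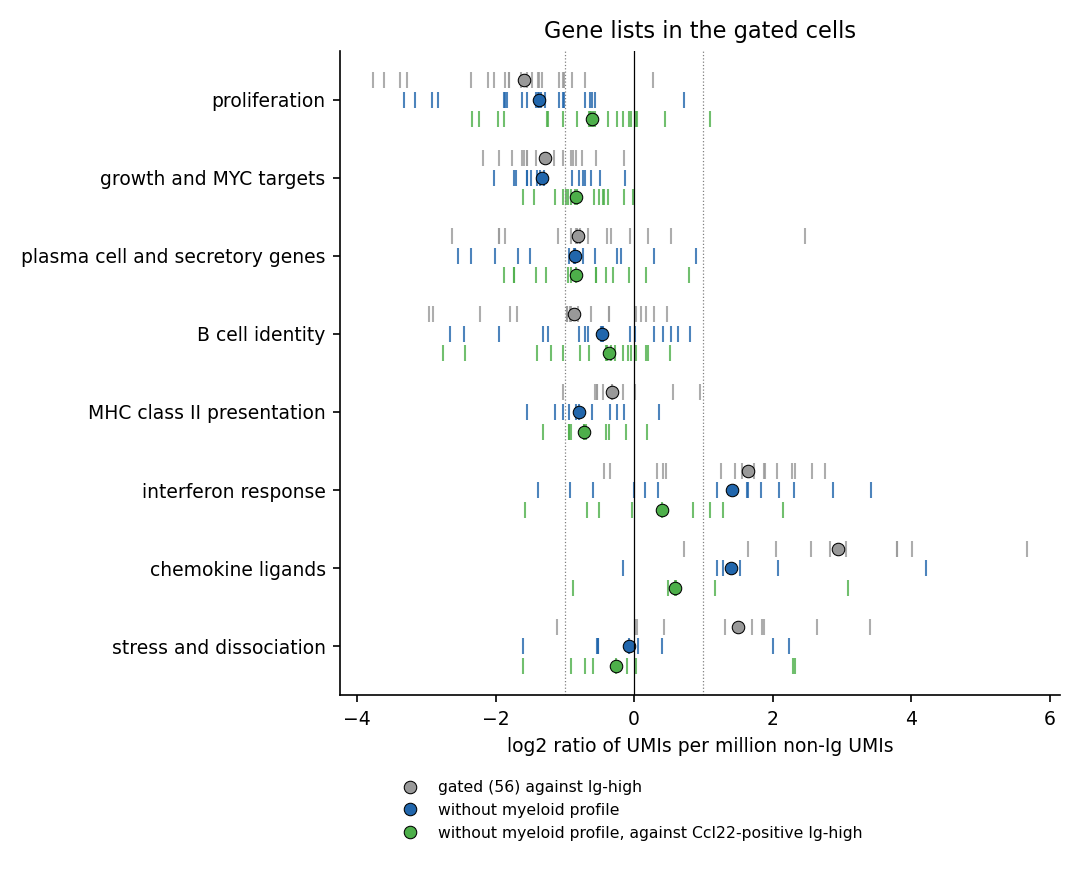
Log2 ratios of list genes with at least 20 UMIs over both sets (ticks) and their medians (circles) for the 56 gated cells against Ig-high cells, for cells without a myeloid profile, and for these against Ccl22-positive Ig-high cells; dotted lines mark 2-fold. The proliferation and growth medians lie below 0 in all 3 comparisons, as does the median over all genes (-0.23, -0.33 and -0.29). The stress and chemokine medians, which leave out genes without a ratio, drop once the myeloid profile is left out.

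Il10, the cytokine named in the study's title, had 0 UMIs in the 56 cells, which at 406666 UMIs allows up to 7.38 CPM (3 counts). Ig-high cells had 0.290 CPM of Il10 and the pBIC lymphoma cells, taken by at least 10 UMIs of their own segment Igkv8-30, had 32.4 CPM. The same gate in the pBIC library held 34 of 17871 barcodes (0.190%, 0.132 to 0.266), but Igkv3-1 is not the segment of the pBIC lymphoma, so it does not select light-chain-low cells there. Of the 34, 5 also had under 10 Igkv8-30 UMIs. Ccl1 had 0 UMIs in the 34, Cd70 was at 7.86 CPM, Ebi3 at 95.9 and Cdkn2a at 390 CPM. Genotype, mouse and library cannot be told apart in that comparison.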

How the data were processed

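The deposited files are 10x matrices of UMI counts per gene and barcode, 1 per mouse, as the authors made them, and contig tables with UMI counts for the T cell receptor. Per the submitters' processing notes they used Cell Ranger 3.0.1 and GRCm39, and per the file headers the matrices come from Cell Ranger 5.0.1. The pBIC10 matrix held 14991 barcodes with 147884282 UMIs (median 5458), and the pBIC matrix 18129 with 166941618 (median 6235).

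For each cell set, UMIs of a gene were added up and set per 1000000 UMIs outside immunoglobulin genes. Ratios have exact conditional binomial, levels exact Poisson and shares exact Clopper-Pearson 95% intervals. They cover counting error only and treat the UMIs as independent, although cells differ. A gene was compared with at least 20 UMIs over both sets and called apart at 2-fold. Where 1 set had no UMI, 3 counts stood in for it if the gene then still lay lower in that set. Otherwise the gene had no ratio and could not be called, but it still counted among the genes compared. With 1 library per genotype there is no test.

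The gate, its members and the gene lists were chosen with earlier results of these data known. Genes ranked by name needed 50 UMIs, and in the higher set 30 CPM and 10% of cells. Genes ranked higher also had to reach 25% of their highest level in other cell types. They were ordered by the interval bound nearest to no difference, with 12 in each direction and up to 3 per list and direction. A gene ranked higher and a B cell gene are not reported here. Immunoglobulin, T cell receptor, mitochondrial, ribosomal protein, haemoglobin, sex-linked, predicted and gate genes stayed out. Genes outside this rule (among them Myc, Hspa5, Mzb1, Birc3, Ccl5, H2-Ab1, Cd74, Ccne2, Fcmr, Ms4a1, Cd79b and Ebf1) were named after their values were seen. The myeloid split was set after the values were seen. A first split by counts (at least 10 Lyz2 or 50 Cst3 UMIs, applied to gated cells alone) kept 47 cells and was replaced, after its results were known, by the split by share of UMIs in both sets. Both are in the closing section. Other cell types were set by Cd3e of at least 3 UMIs (T cells), Lyz2 of at least 20 (macrophages) and S100a8 of at least 50 (neutrophils). Scrublet (scanpy 1.11.5, expected rate 8%) called 367 of 14667 barcodes (2.50%), and calls were kept. Each cell was thinned once to 2000 UMIs, and 27 shallower Ig-high cells without a myeloid profile were left out. The comparison was tested on simulated counts with known changes, drawn independently from the Ig-high profile for genes with at least 10 UMIs expected in gated cells. These lack the uneven counts between cells, so they do not show how the intervals or calls hold for the real data. Python 3.11.15, numpy 2.4.6, scipy 1.17.1 and matplotlib 3.10.9 were used.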

Additional observations from a re-analysis of the deposited data

How the results depend on the processing

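No paired analysis was possible because each genotype has 1 library and no result comes from a test. The number of gated cells was 81 with at least 2 Ccl22 UMIs, 31 with at least 5, 14 with Igkv3-1 under 5, 32 with at least 2 Gstt1 UMIs and 25 without cells holding a UMI of other types' markers. Against 1472 genes at least 2-fold higher and 1860 lower, 992 were lower with Igkv3-1 under 5, and 750 higher without cells holding a UMI of other types' markers. With Ig-high cells matched on UMIs the counts were 479 and 1083, with every cell thinned 649 and 1051, and with at least 10 UMIs expected in gated cells 100 and 902. Higher genes numbered 729 at a minimum of 100 UMIs, 786 against Ccl22-positive Ig-high cells, 951 under the first split by Lyz2 and Cst3 counts, and 418 under either split against Ccl22-positive Ig-high cells. List medians of at least 1 on the log2 scale that changed sign were interferon response at -0.33 with Igkv3-1 under 5, and stress at -0.65 without cells holding other types' markers, -0.068 and -0.085 under the later and the first split, and -0.26 and -0.30 under these against Ccl22-positive Ig-high cells. Log2 ratios of genes at least 2-fold apart that changed sign follow. Dnajb1 was at 0.20 with Ccl22 of at least 2, and Vsir at -0.22 with Gstt1 of at least 2. With Igkv3-1 under 5, Tgfbi was at -0.73, Cxcr5 0.71, Lgals3 -0.83, Bnip3 -0.21 and Fos -0.33. Without cells holding other types' markers, Cxcl10 was at -0.84, Ccr7 -1.009, Il1b -0.99, Bbc3 -0.20, Bcl2a1b -0.49, Cd80 -0.35, Irf7 -0.027 and Fos -1.08. The first split gave S100a4 -1.85, Tgfbi -0.77, Tyrobp -0.46, Tnfrsf1a -0.50, Bnip3 -0.25, Socs3 -0.94 and Fos -0.76. The later split gave S100a4 -0.18, Camp 1.18, Bnip3 -0.11 and Fos -0.54. Thinning gave Bbc3 -0.38 and Bnip3 -1.73. Against Ccl22-positive Ig-high cells Ebi3 was at -0.076 over all 56 cells. With the later split as well, S100a4 was at -0.12, Bnip3 -0.32 and Fos -0.71. With the first, S100a4 was at -2.17, Cxcl10 -0.78, Zyx -0.14, Tgfbi -1.21, Tyrobp -0.83, Tnfrsf1a -0.93, Lgals3 -0.46, Bnip3 -0.52, Socs3 -1.16 and Fos -1.11. The cause of these changes was not tested. Over all alternatives, 417 values of list medians stayed within 1.5-fold and 61 moved further, while 1402 values of single genes stayed within the counting interval of the ratio and 415 moved outside it. Both splits, the Ccl22-positive comparison and the minimum of 10 expected UMIs were chosen after seeing the data. The gated cells hold 406666 UMIs, which limits what can be seen of genes with few UMIs.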
